A study of Mus musculus with 6 samples.

Results

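The genes described here are 10 members of the bone morphogenetic protein (BMP) signaling pathway: the receptors Bmpr1a, Bmpr1b, Acvr1 and Bmpr2, the intracellular SMADs Smad1, Smad5 and Smad6, and the ID target genes Id1, Id2 and Id3. They were taken by gene symbol from a table of 23718 listed genes, and each member matched 1 row. RNA was sequenced from laser-captured incisor tissue of mice 1 month old, an organ that grows throughout life. The mesenchymal stem cell (MSC) group held 3 samples from Gli1-CreER;tdT mice, and the transit amplifying cell (TAC) group, the dividing progeny of the stem cells, held 3 samples from Axin2-CreER;tdT mice. The comparison asks whether the receiving end of the BMP pathway differed in expression between the stem cells and their dividing progeny.

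All 6 samples carried a tamoxifen-inducible Cre and a tdTomato reporter, with tamoxifen given 1 day before collection, and the labels give the strain as C57BL/6, where the methods speak of a mixed background. By the methods each group came from 3 mice. The Gli1 driver was used for the MSC region and the Axin2 driver for the TAC region, so the region and the driver line cannot be told apart. A captured area of a tissue section holds every cell in it, and in such bulk RNA fewer cells of a type and less RNA per cell cannot be told apart.

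BMP ligands bind a complex of type I and type II receptors, which are serine and threonine kinases. The type II receptor activates the type I receptor, which phosphorylates SMAD1 and SMAD5. These join SMAD4, enter the nucleus and act on target genes, among which the ID genes are the best known, while SMAD6 holds the pathway back. ID proteins bind E proteins, which are transcription factors of the basic helix-loop-helix class, and keep them from DNA. In teeth, BMP signaling is known for its part in the exchange between epithelium and mesenchyme and in the differentiation of odontoblasts, the cells that make dentin.

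Values are in the deposited normalized signal. It was taken as a scale on which a read weighed the same in every gene and each library was scaled to a common level. A value thus compares libraries for a gene. The libraries held between 20203159 and 108156380 estimated reads. Mitochondrial ribosomal RNA took 8.28% to 9.07% of reads in the replicates numbered 1 and 2, whichever the group, but 0.236% in the third MSC library and 0.112% in the third TAC library. Across genes, log values of MSC replicates 1 and 2 correlated at 0.983 and those of TAC replicates 1 and 2 at 0.990, while MSC replicate 1 correlated at 0.793 with MSC replicate 3. Replicates 1 and 2 differed by more than counting noise in either group, with a chi-square per gene of 10.1 in MSC and 8.20 in TAC, far below the values of 1269 to 1617 against replicate 3. They were kept as the separate samples of the labels, and whether they share an RNA was not tested. The difference within replicates 1 and 2 and that within replicate 3 are therefore given beside the difference of each member. Summed signal of 10 proliferation markers ran from 158 to 242 in MSC and from 421 to 1133 in TAC, without overlap. Mki67 was the largest part of each sum. Taken alone, Mki67, Pcna and Ccna2 overlapped between the groups, Mki67 with 137 in MSC replicate 1 and 122 in TAC replicate 3. Gli1 had a signal of 256, 245 and 422 in MSC, in the order of the replicate numbers, and of 153, 141 and 396 in TAC. It was higher in MSC within each number, but the groups overlapped because TAC replicate 3 lay above MSC replicates 1 and 2. Axin2 stood at 58.3, 48.0 and 12.01 in MSC and at 56.8, 63.9 and 34.1 in TAC, and also overlapped. The 14 dental mesenchyme markers summed to 11534, 11637 and 3454 in MSC and to 13176, 13163 and 9620 in TAC, lowest in MSC replicate 3, where Barx1 was at the lowest value and Col1a1 at 1554 against 9568 and 9609. Col1a1 was the largest part of each sum. Pax9 (120, 107 and 173 in MSC), Prrx1 (102, 103 and 124), Vim (420, 440 and 621) and Gli1 were instead highest in MSC replicate 3. The rest of the list was lower there than in MSC replicates 1 and 2. By mean, Barx1, Gli1, Lhx6, Lhx8, Pax9, Prrx1, Twist1 and Vim were lower in TAC, and the remaining markers higher.

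No TAC to MSC difference passed the test in the 9 members that could be tested. Testing used limma on log2(value + 1) over the 15391 genes with a mean value of at least 1, and 0 of 9 members had an adjusted p under 0.05, where 0.422% of all genes did. At an unadjusted p under 0.05 the count was also 0 of 9, where 11.9% of all genes passed. In size the member differences had a median of 0.158 on the log2 scale, against 0.513 over all tested genes, and the highest was 0.45, for Smad5. The tested members lay between the percentiles 77.9 (Acvr1) and 97.5 (Bmpr2) of mean signal among all listed genes. A comparison with genes of like level was not made. Of the 9, 5 were higher and 4 lower in TAC, with a median log2 fold change (TAC minus MSC) of 0.099 beside 0.026 for all tested genes. The member median changed sign between library sets, being -0.074 in replicates 1 and 2 and 0.082 in replicate 3. With the library set as a term, which called 11.8% of all genes, 0 of 9 members passed and the smallest adjusted p was 0.0839, for Smad5. The tested members were covered by between 680 and 26410 estimated reads per library.

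**Figure D1:**
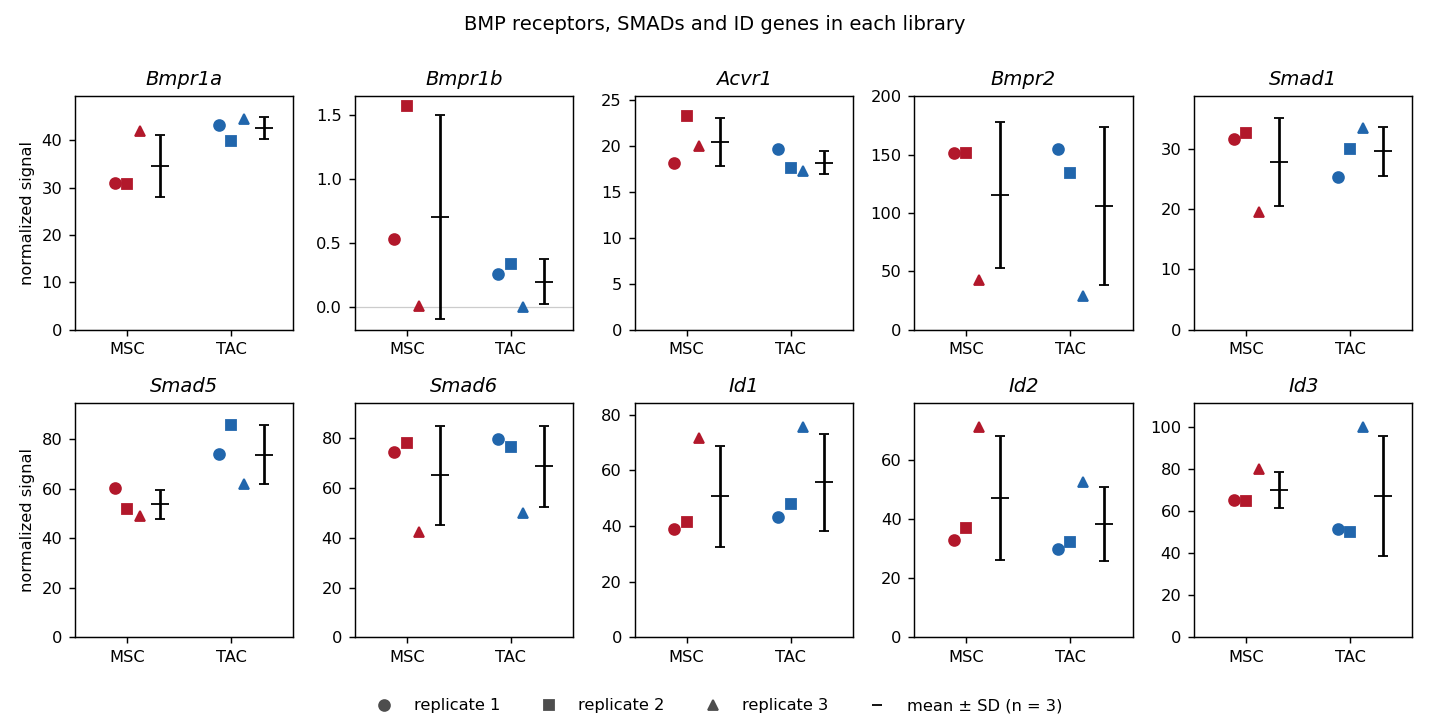
Normalized signal (vertical axis, linear, a scale of its own for each gene) of the 10 genes in the 3 MSC and 3 TAC libraries, with points for libraries and bars for the mean ± SD (n = 3). The Smad5 points of TAC, from 61.7 to 85.5, all lie above those of MSC, from 48.9 to 60.1, while in Bmpr2, Smad6, Id1 and Id2 the triangles of replicate 3 stand apart from replicates 1 and 2 in both groups.

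Of the type I receptors, Bmpr1a and Acvr1 were measured in all libraries and Bmpr1b lay near the detection limit. Bmpr1a encodes a widely used type I receptor for BMP2 and BMP4 (chromosome 14, 34410734 to 34503341, minus strand; all coordinates are on mm10). In the order of the replicate numbers, here and below, its signal was 30.9, 30.7 and 42.0 in MSC and 43.3, 39.9 and 44.4 in TAC. TAC was higher within each replicate number, yet the groups overlapped, because MSC replicate 3 lay above TAC replicate 2. The means were 34.5 ± 6.45 in MSC and 42.5 ± 2.37 in TAC (SD, n = 3). This gave a log2 fold change of 0.31 ± 0.27 (SE; 95% interval -0.32 to 0.93; limma adjusted p = 0.710). The first and second replicates gave 0.42 and the third 0.080. An antisense gene, Gm17110, overlaps exons of Bmpr1a, and since the use of strand in counting is not given, reads of the pair cannot be told apart.

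Acvr1 encodes the type I receptor also called ALK2 (chromosome 2, 58388644 to 58567157, minus strand). Signal was 18.1, 23.3 and 20.0 in MSC and 19.6, 17.6 and 17.2 in TAC. The groups overlapped, and MSC replicate 2 was the highest library. With means of 20.5 ± 2.60 in MSC and 18.2 ± 1.27 in TAC (SD, n = 3), the log2 fold change was -0.16 ± 0.29 (SE; 95% interval -0.84 to 0.53; limma adjusted p = 0.897). Its direction was the same in both library sets, at -0.14 in replicates 1 and 2 and -0.20 in replicate 3, and the value was -0.066 without MSC replicate 2.

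Bmpr1b encodes the third type I receptor, best known from cartilage (chromosome 3, 141837136 to 142169425, minus strand). It was near the detection limit, with 0.533, 1.56 and 0.0067 in MSC and 0.263, 0.336 and 0.0038 in TAC. Behind these stood 19, 53 and 0 estimated reads in MSC and 11, 13 and 0 in TAC. The 0 reads in both libraries of replicate 3 allow a signal of up to 0.0266 in MSC and 0.0152 in TAC, counting 3 reads as the limit and counting error only. Bmpr1b did not reach the mean of 1 required for testing. Without that filter its log2 fold change was -0.41 ± 0.36 (SE; 95% interval -1.23 to 0.41; limma adjusted p = 0.808). Replicates 1 and 2 gave -0.61, and replicate 3, without a read in either group, gives no difference.

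Bmpr2, the type II receptor dedicated to BMP ligands (chromosome 1, 59763400 to 59879014, plus strand), was the tested member that varied most between libraries. It measured 152, 152 and 43.0 in MSC and 155, 134 and 29.2 in TAC. Replicate 3 was the low library in both groups, at 0.283 of the mean of replicates 1 and 2 in MSC and at 0.202 in TAC. The group means of 116 ± 62.9 and 106 ± 67.5 (SD, n = 3) differed by less than that spread. Its difference of -0.23 ± 0.75 (log2, SE) had the widest interval of the members, from -1.996 to 1.53, with a limma adjusted p of 0.950. Within the sets the difference was -0.074 for replicates 1 and 2 and -0.54 for replicate 3.

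Smad1 and Smad5 are the SMADs that receptors activate. Smad5 (chromosome 13, 56703010 to 56742377, plus strand) was the 1 member whose groups did not overlap, a separation with TAC higher that 12.3% of all tested genes showed, while 12.2% separated with MSC higher. Its signal was 60.1, 51.8 and 48.9 in MSC and 73.9, 85.5 and 61.7 in TAC. Every TAC library was above every MSC library, and the closest pair was TAC replicate 3 and MSC replicate 1. The means were 53.6 ± 5.85 and 73.7 ± 11.9 (SD, n = 3), a ratio of 1.38. The log2 fold change of 0.45 ± 0.26 (SE; 95% interval -0.16 to 1.05) did not pass the test, with a limma p of 0.128 and an adjusted p of 0.567. With the replicate number as a block the p was 0.0437 and the adjusted p 0.233. The direction held in both sets, at 0.50 in replicates 1 and 2 and 0.33 in replicate 3. The summed proliferation markers, given above, also separated the groups with TAC higher, and their part in the Smad5 value was not tested. A small RNA gene, Gm27301, overlaps exons of Smad5 on the same strand.

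Smad1 (chromosome 8, 79338395 to 79399518, minus strand) measured 31.6, 32.5 and 19.4 in MSC and 25.3, 29.9 and 33.5 in TAC. Replicate 3 was the lowest library of MSC and the highest of TAC. The means of 27.9 ± 7.30 and 29.6 ± 4.12 (SD, n = 3) gave a log2 fold change of 0.11 ± 0.32 (SE; 95% interval -0.64 to 0.85; limma adjusted p = 0.941). The sets pointed opposite ways, with -0.21 in replicates 1 and 2 and 0.75 in replicate 3.

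Smad6, the inhibitory SMAD that BMP signaling itself induces (chromosome 9, 63953076 to 64022059, minus strand), stood at 74.7, 78.3 and 42.3 in MSC and at 79.9, 76.4 and 50.02 in TAC. Replicate 3 was again the low library of each group. The means were 65.1 ± 19.8 and 68.8 ± 16.3 (SD, n = 3), and the log2 fold change was 0.10 ± 0.35 (SE; 95% interval -0.72 to 0.91; limma adjusted p = 0.956). Replicates 1 and 2 gave 0.030 and replicate 3 gave 0.24.

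The sequences upstream of Smad5, the member with separate groups, and of Smad6, which is both a component and a target, are given to compare the SMAD genes. Each is the 250 bases before the first RefSeq start (GRCm38.p6, the assembly behind mm10), which ends where the annotated gene begins, at chr13:56702760-56703009 on the plus strand and chr9:64022060-64022309 on the minus strand. Patterns were searched on both strands, the SMAD-bound GGCGCC, the SMAD-bound CAGAC and the E-box CANNTG that E proteins bind, and capitals mark a match.
Smad5: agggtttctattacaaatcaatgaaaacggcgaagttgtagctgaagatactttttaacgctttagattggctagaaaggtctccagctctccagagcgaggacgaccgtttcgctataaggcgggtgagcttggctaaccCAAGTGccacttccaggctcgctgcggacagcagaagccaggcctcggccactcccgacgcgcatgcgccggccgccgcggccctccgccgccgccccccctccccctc
Smad6: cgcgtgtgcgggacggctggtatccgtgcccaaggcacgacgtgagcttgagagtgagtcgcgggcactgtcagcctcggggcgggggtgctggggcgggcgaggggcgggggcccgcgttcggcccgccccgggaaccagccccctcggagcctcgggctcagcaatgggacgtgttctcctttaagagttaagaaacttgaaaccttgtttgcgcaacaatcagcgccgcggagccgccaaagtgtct
The Smad5 stretch held 1 E-box and neither SMAD pattern, and the Smad6 stretch held none of the patterns. GGCGCC was present in 9.59% of all 32851 windows of this length, CAGAC in 42.2% and CANNTG in 66.2%. GGCGCC occurred 1 time in the windows of Bmpr1a, Bmpr2, Id2 and a later start of Smad5. CAGAC occurred 2 times in that of Id3 and 1 time in windows of Bmpr1b and of another later start of Smad5. An E-box was also present in the windows of Id2 and of Bmpr1b. The windows of Acvr1 and Smad1 held none of the patterns. A match or its absence describes these letters only.

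The ID genes are short genes that respond to BMP signaling within hours. Id1 (chromosome 2, 152736251 to 152737410, plus strand) measured 39.0, 41.4 and 71.6 in MSC and 43.3, 48.0 and 75.8 in TAC. Each TAC library was above the MSC library of the same number, while replicate 3 was the high library of both groups. The means of 50.6 ± 18.2 and 55.7 ± 17.6 (SD, n = 3) gave a log2 fold change of 0.15 ± 0.36 (SE; 95% interval -0.69 to 0.99; limma adjusted p = 0.928). Replicates 1 and 2 gave 0.18 and the third gave 0.082.

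Id2 (chromosome 12, 25093799 to 25097140, minus strand) measured 32.9, 37.0 and 71.1 in MSC and 29.996, 32.2 and 52.7 in TAC. Here each TAC library was below the MSC library of the same number, and replicate 3 was again the high one. The means were 47.0 ± 20.99 and 38.3 ± 12.5 (SD, n = 3). The difference of -0.25 ± 0.39 (log2, SE; 95% interval -1.17 to 0.67; limma adjusted p = 0.872) was -0.16 in replicates 1 and 2 and -0.43 in replicate 3.

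Id3 (chromosome 4, 136143497 to 136145755, plus strand) measured 65.2, 64.9 and 80.0 in MSC and 51.4, 50.3 and 100.1 in TAC. TAC held both the lowest libraries and the highest one. Means of 70.04 ± 8.66 and 67.3 ± 28.5 (SD, n = 3) gave a log2 fold change of -0.13 ± 0.34 (SE; 95% interval -0.92 to 0.67; limma adjusted p = 0.936). The sets pointed opposite ways, at -0.35 in replicates 1 and 2 and 0.32 in replicate 3.

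ID genes are also active in blood vessels, so vessel markers are given beside them. The summed signal of 13 endothelial markers was 380, 389 and 481 in MSC and 174, 171 and 150 in TAC, with no overlap and none of the 13 at the lowest value. For 10 smooth muscle and pericyte markers the sums were 861, 868 and 1577 in MSC and 143, 141 and 110 in TAC, with Cnn1 at the lowest value in TAC replicate 3 and Des in both libraries of replicate 3. Within MSC, Rgs5 (276, 268 and 880) and Acta2 (81.5, 73.5 and 266) were highest in replicate 3, as were Abcc9, Cnn1, Kcnj8 and Tagln. Myh11 (204, 205 and 106), Cspg4 (125, 135 and 77.0), Notch3 (110, 124 and 86.8) and Des were lowest there. The 8 macrophage markers summed to 99.4 to 207 in MSC and 53.0 to 108 in TAC, with Adgre1 at the lowest value in MSC replicate 3. The part of these cells in the ID, Smad6 and Smad5 values was not tested.

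**Figure D2:**
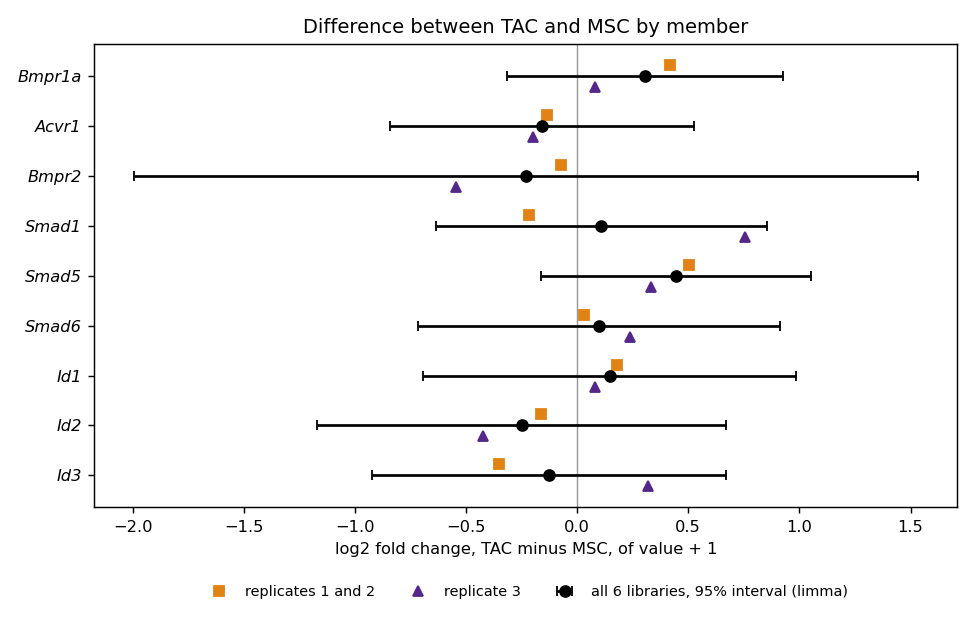
Log2 fold change of value + 1 (horizontal axis, TAC minus MSC) for the 9 tested members, with circles and 95% intervals from limma over all 6 libraries, squares for replicates 1 and 2 and triangles for replicate 3. Every interval spans 0, from Smad5 at -0.16 to 1.05 to Bmpr2 at -1.996 to 1.53, and the squares and triangles of Smad1 and Id3 lie on opposite sides of 0.

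In most members replicate 3 stood further from replicates 1 and 2 than TAC did from MSC. Replicate 3 differed from the mean of replicates 1 and 2 in the same direction in MSC and TAC for 8 of the 9 tested members, Smad1 being the exception. In 6 members, Smad1 among them, that difference exceeded the TAC minus MSC difference in both groups. Bmpr2 was lower in replicate 3 by the most, at -1.80 in MSC and -2.27 in TAC on the log2 scale. Smad6 was also lower, at -0.84 and -0.63. The 3 ID genes were higher in replicate 3 of both groups, Id1 by 0.82 in MSC and 0.72 in TAC, Id2 by 1.01 and 0.74, and Id3 by 0.30 and 0.96. Acvr1 differed little, by -0.041 and -0.10. Some markers of other cells also differed between the sets. Sums of 9 listed epithelial markers were 3664, 3604 and 303 in MSC and 3274, 3347 and 2156 in TAC, with Cdh1, Epcam and Trp63 at the lowest value in MSC replicate 3. Amelx measured 2503, 2492 and 80.6 in MSC and 2102, 2209 and 826 in TAC, while Krt14 went the other way, with 12.9, 8.84 and 16.0 in MSC and 18.1, 16.1 and 35.6 in TAC. Ambn was lower in replicate 3 of MSC, with 820, 770 and 181, and higher in that of TAC, with 819, 799 and 1157. The 6 odontoblast markers summed to 5203, 5060 and 763 in MSC and to 4710, 4679 and 4432 in TAC, with Dmp1, Ibsp and Mepe at the lowest value in MSC replicate 3 and Mepe also in MSC replicate 1 and TAC replicate 3. Dspp made up most of these sums, and Bglap was higher in replicate 3, at 279 in MSC and 1180 in TAC, than in replicates 1 and 2, at 172 to 201. Their part in the replicate 3 values was not tested.

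**Figure D3:**
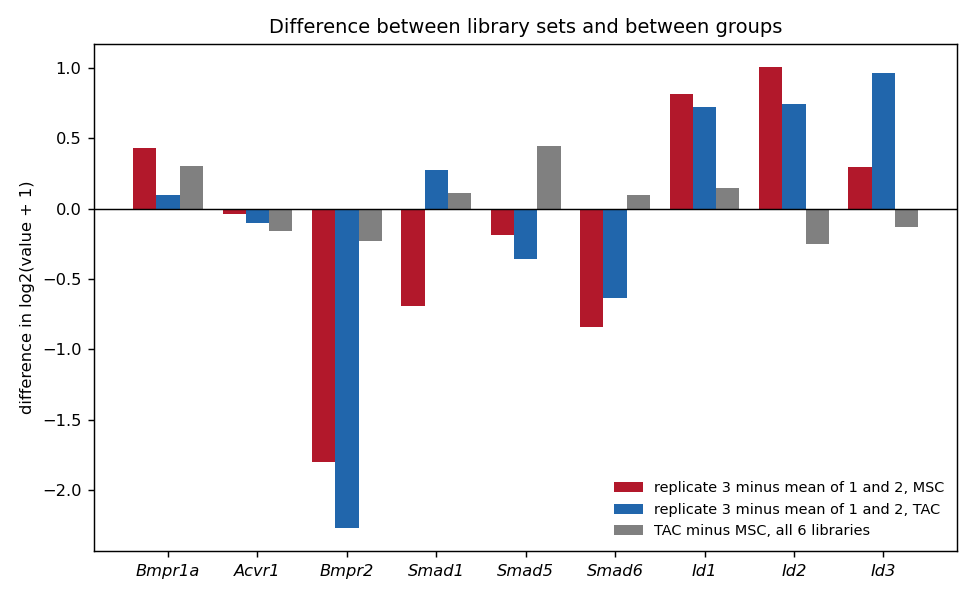
Difference in log2(value + 1) (vertical axis) for the 9 tested members, with red and blue bars for replicate 3 minus the mean of replicates 1 and 2 in MSC and in TAC, and grey bars for TAC minus MSC over all 6 libraries. The Bmpr2 bars reach -1.80 and -2.27 while those of the ID genes lie between 0.30 and 1.01, and the grey bars stay between -0.25 and 0.45.

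Within replicates 1 and 2 alone, 3 of the 9 members passed the limma test, in a fit in which 44.2% of all tested genes passed. Whether these replicates share an RNA was not tested, so the p values of this fit need not measure the spread between mice. The members that passed are named next. These members were Bmpr1a, with a log2 fold change of 0.42 (adjusted p = 0.00490), Smad5, with 0.50 (adjusted p = 0.00268), and Id3, with -0.35 (adjusted p = 0.00318).

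Levels of different genes were compared per kilobase of annotated exon, as the mean ± SD over the 6 libraries. Id1 was highest, with a signal of 45.8 ± 13.99 per kilobase, followed by Id3 at 38.3 ± 10.6. Smad6 at 20.9 ± 5.11 and Id2 at 17.5 ± 6.64 came next. The levels per kilobase of Smad5 (8.58 ± 1.87), Bmpr2 (6.16 ± 3.26), Bmpr1a (6.07 ± 0.972), Smad1 (4.58 ± 0.860) and Acvr1 (4.0 ± 0.459) followed, and Bmpr1b was last at 0.0757 ± 0.0976. The order held in 6 of 6 libraries for Id3 over Smad6, Id2 over Smad5, and Acvr1 over Bmpr1b. Every other neighboring pair kept its order in 4 of 6 libraries, with overlapping mean ± SD ranges. Among protein-coding genes, Id1 lay at the percentile 98.5 and Id3 at 98.2 of the level per kilobase, and Bmpr1b at 6.81.

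Profiles over the 6 libraries were compared by the root-mean-square difference of log2 values, each gene centred on its own mean. Among pairs of members the ID genes lay closest to each other, at 0.210 for Id1 and Id2, 0.243 for Id1 and Id3, and 0.264 for Id2 and Id3. Over all genes with a mean of at least 10, the nearest to Id1 were Cnn2 (0.0483), Arhgdia (0.0659) and Chmp6 (0.0667). Id2 was nearest to Rian (0.0497), Gpi1 (0.0570) and Stk11 (0.0718), and Id3 to Naalad2 (0.0523), Galk2 (0.0579) and Angel2 (0.0677). For Smad5 the nearest were Mfap3 (0.0616), Ipo9 (0.0738) and Abat (0.0865). For Smad6 the genes named are Anks1 (0.0344) and Pja1 (0.0694), and for Smad1 Vps37a (0.0594), Git1 (0.0648) and Mier3 (0.0709). Among the receptors, Bmpr1a was nearest to Fam195b (0.0322), Men1 (0.0353) and Nol6 (0.0570). Acvr1 was nearest to Snx6 (0.0332), Rgp1 (0.0403) and Evl (0.0627). Bmpr2 was nearest to Sh3pxd2a (0.0753), Ppp6r2 (0.0771) and C2cd3 (0.115). These distances describe 6 libraries in which replicate 3 stands apart.

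The rest of the pathway was read from 7 lists, which held 65 genes besides the members, of which 54 were tested and 1 passed the adjusted threshold, or 2 with the replicate number as a block, which called 1.49% of all genes. The first was Grem1, a BMP antagonist, which is a secreted protein that binds the ligands. Grem1 measured 14.8, 13.6 and 17.2 in MSC and 0.285, 0.312 and 0.0038 in TAC, the last with 0 reads. It was far lower in every TAC library, with a log2 fold change of -3.76 ± 0.48 (SE; limma adjusted p = 0.0389). The size depended on the pseudocount, being -4.51 at 0.5 and -2.19 at 4. The call was lost when any 1 of MSC replicates 1 and 2 and TAC replicates 1, 2 and 3 was left out, with adjusted p values from 0.0659 to 0.241, and without the filter on low values (adjusted p = 0.0887). Of the 9 tested antagonists 7 were lower in TAC, with a median of -0.87 beside 0.026 for all genes. For replicates 1 and 2 that median was -0.98, for replicate 3 it was -0.70, and it was -0.48 at a pseudocount of 4. The summed endothelial and smooth muscle markers, given above, were also lower in TAC. The 6 Schwann cell markers summed to 52.1, 46.9 and 161 in MSC and to 24.3, 28.3 and 51.6 in TAC, lower within each replicate number but overlapping. The part of these cells in the antagonist values was not tested. The other antagonist at an unadjusted p under 0.05 was Fst, at -1.90 (adjusted p = 0.352; -1.62 in replicates 1 and 2 and -2.46 in replicate 3), and the highest value was that of Fstl1, at 0.54 (0.61 and 0.40).

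Among 8 tested BMP ligands none passed, 5 were higher and 3 lower in TAC, and the median log2 fold change was 0.30. The sign of that median depended on the libraries and the filter, since it was 0.47 in replicates 1 and 2, -0.27 in replicate 3, -0.13 without TAC replicate 1, -0.081 without TAC replicate 2 and -0.21 at a mean of at least 10. Bmp6 had -2.75 ± 0.63 (SE; limma adjusted p = 0.148), with 31.0, 32.8 and 16.5 in MSC and 6.02, 4.17 and 0.701 in TAC. Bmp2 had -0.98 (adjusted p = 0.382), with 103, 108 and 77.0 in MSC and 61.2, 64.3 and 27.2 in TAC, and -0.59 without TAC replicate 3. Bmp8a had the highest value of the list, 1.46, but 0.65 without MSC replicate 3, in which it had no read. Groups did not overlap for 4 of the 8 ligands, Bmp2 and Bmp6 with MSC higher and Bmp7 and Bmp8a with TAC higher, where 12.2% and 12.3% of all tested genes separated in these directions.

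Of 10 other tested receptors, coreceptors and SMADs, 5 were higher and 5 lower in TAC, none passed, and the median was 0.0061, ranging from -0.53 without MSC replicate 3 to 0.47 without TAC replicate 3. Bambi, a decoy receptor that blocks BMP signaling and is induced by it, measured 53.0, 50.9 and 70.3 in MSC and 134, 140 and 130 in TAC. Every TAC library was above every MSC library, and the log2 fold change of 1.21 ± 0.26 (SE) had a limma adjusted p of 0.126, where replicates 1 and 2 gave 1.38 and replicate 3 gave 0.88. Eng, a coreceptor abundant in endothelium, measured 56.6, 60.2 and 75.2 in MSC and 25.8, 24.1 and 34.9 in TAC (-1.16 ± 0.28, log2, SE; limma adjusted p = 0.167). The lowest value in the list was that of the coreceptor Rgma, -1.29, which was -0.53 without TAC replicate 3.

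In the list of 7 other BMP-SMAD targets, 5 were higher and 2 lower in TAC, none passed, and the median log2 fold change was 0.53. Msx2, a homeobox gene of tooth mesenchyme, measured 43.6, 44.3 and 26.9 in MSC and 109, 107 and 104 in TAC (1.49 ± 0.29, log2, SE; limma adjusted p = 0.106). Dlx5, another homeobox gene, had a log2 fold change of 0.87 (adjusted p = 0.254), and Atoh8, a basic helix-loop-helix gene, -1.79 ± 0.50 (SE; adjusted p = 0.201). Replicates 1 and 2 gave 1.28 for Msx2, 0.88 for Dlx5 and -1.73 for Atoh8, and replicate 3 gave 1.90, 0.84 and -1.91. Groups did not overlap for 4 of the 7, Msx1, Msx2 and Dlx5 with TAC higher and Atoh8 with MSC higher, beside 12.3% and 12.2% of all tested genes, and overlapped for Id4, Hey1 and Junb. Their median was 0.22 over replicates 1 and 2 and 1.15 over replicate 3.

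The remaining lists also had no gene past the adjusted threshold in the fit without a block. Of 11 SMAD regulators 4 were higher and 7 lower in TAC, with a median of -0.20, or -0.094 without MSC replicate 3 and -0.11 without MSC replicate 1. The SMAD ubiquitin ligase Smurf1 had -0.88 (limma adjusted p = 0.368; -0.78 in replicates 1 and 2 and -1.07 in replicate 3), Zfp423 the lowest value, -1.60 (-0.91 without TAC replicate 3), and Tob1 the highest, 0.69, which was -0.61 without MSC replicate 3, where Tob1 had no read. The 3 E proteins that ID proteins bind had higher means of log values in TAC, but overlapping groups, with log2 fold changes from 0.19 for Tcf4 to 0.69 for Tcf3 (0.30 without MSC replicate 3) and no p under 0.05. Tcf4 turned direction when MSC replicate 3 was left out (-0.042), and likewise for replicate 1 (-0.085) or 2 (-0.047) of TAC. The list median, 0.30, ran from 0.10 to 0.69 when 1 library was left out, the lowest without MSC replicate 3 and the highest without TAC replicate 3. Of 6 tested receptors and SMADs of the TGF-beta and activin branch, 4 were higher and 2 lower in TAC, with a median of 0.12, or -0.11 in replicates 1 and 2. Tgfbr3, a coreceptor, had -2.05 (limma adjusted p = 0.275), where replicates 1 and 2 gave -1.97 and replicate 3 gave -2.21, and it was the second gene called with the replicate block (adjusted p = 0.0491). Tgfbr1 had the highest value, 0.37.

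With the library set as a term, 17 of the 54 tested pathway genes passed, beside 11.8% of all genes. Among the genes named above these were Bambi (limma adjusted p = 0.00753), Eng (0.0061), Msx2 (0.00677), Dlx5 (0.00502), Atoh8 (0.00679), Bmp6 (0.00719), Bmp2 (0.024), Smurf1 (0.0194), Zfp423 (0.015), Tcf3 (0.045), Fst (0.0229), Fstl1 (0.0152), Tgfbr3 (0.00844) and Grem1 (0.00386). That fit assumes 1 shift of replicate 3 common to both groups.

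**Figure D4:**
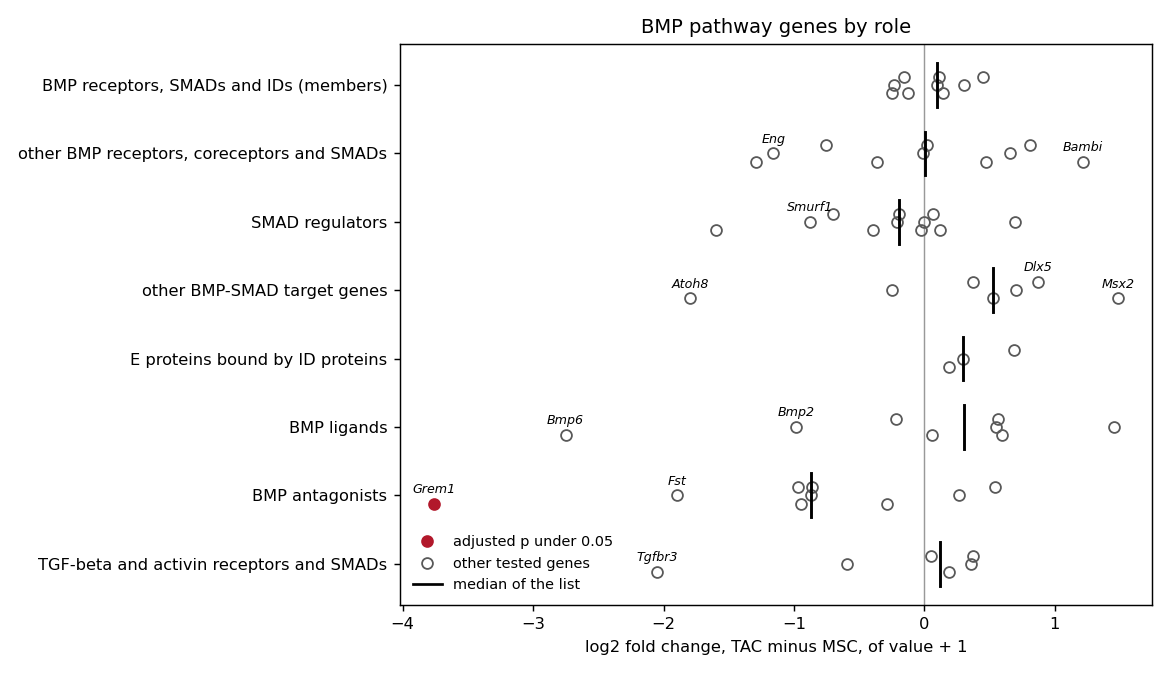
Log2 fold change of value + 1 (horizontal axis, TAC minus MSC) of the tested genes of each list (rows), with circles for genes, filled at an adjusted p under 0.05, and black bars for list medians. The members lie between -0.25 and 0.45, while Grem1 at -3.76 is the 1 filled circle.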

How the data were processed

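RNA from 3 MSC and 3 TAC laser-captured samples was sequenced in single-end reads of 75 cycles. Per the methods and the submitters' processing notes, the authors trimmed reads, aligned them with TopHat 2.0.8 to mm10 and used CASAVA 1.8.2 and Partek. How reads were assigned to genes, and whether by strand, is not given in the sources used here. The methods name RPKM, but the deposited values did not behave as RPKM: the lowest value of a library was shared by genes of any length, and 62.7% to 72.1% of low values were whole multiples of it (tolerance 0.02). The deposited unit was thus taken as a signal, proportional to reads plus 1 and scaled per library, and the test planned for normalized values was kept. Estimated reads were the value divided by the lowest value, minus 1. Intervals on them cover counting error only.

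limma 3.58.1 in R 4.3.3 was fitted to log2(value + 1), with a variance trend, over genes with a mean of at least 1, two-sided, with Benjamini-Hochberg adjustment over 15391 genes. A pseudocount of 1 understates changes of low genes. The fit was tested on simulated data in which replicate 3 did not stand apart, so that test does not cover the difference between library sets. Same-numbered samples deviated together across genes (correlations 0.477, 0.465 and 0.517), but MSC replicate 1 with TAC replicate 2 gave 0.462, so the shared deviation is that of replicate 3. The labels number the samples, and a fit with that number as a block was an alternative. So were other pseudocounts, filters, scalings and variance models, the library set as a term, subsets of libraries and each library left out.

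The members and lists were chosen with earlier results of these data known. Named genes were all members. From each list they were the genes under an adjusted p of 0.05, else under an unadjusted p of 0.05, and the highest and lowest log2 fold change. For each tested member the 3 genes nearest in profile were named, leaving out predicted genes and clone names. A few genes that the rule or the lists would include are not reported here. Gene places were compared with GENCODE M21, in which 94.6% of symbols were found. Promoter sequences came from a set built on RefSeq starts (GRCm38.p6), and the set held 9 of the 10 members. Id1 had no entry in that set. Genes under 10 estimated reads in every library are not analysed here.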

Additional observations from a re-analysis of the deposited data

How the results depend on the processing

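No member passed the adjusted threshold under any alternative except the fit to replicates 1 and 2 only, which called 3. The count at an unadjusted p under 0.05, 0 with all libraries, was 1 with the replicate block, 1 with the library set as a term, 3 in replicates 1 and 2 only, and 0 to 1 when a library was left out (1 without MSC replicate 3 or TAC replicate 3). At that p 11.9% of all genes passed with all libraries, and the shares in the other fits were not computed. The block, the set term and replicates 1 and 2 only passed more genes in general, by the adjusted shares given below. The replicate block changed no call of a member. Calls among the other pathway genes, 1 in all libraries, became 0 without a filter, 0 at a mean of at least 10, which left Grem1 untested, 2 with the replicate block, 17 with the library set as a term, 37 in replicates 1 and 2 only, 0 with these averaged, and 0 to 3 when a library was left out (3 without MSC replicate 3, 0 without any other). Over all tested genes the share called was 0.422% with all libraries and 1.49% with the replicate block. It was 11.8% with the library set as a term and 44.2% in replicates 1 and 2 only. Without MSC replicate 3, 292 of 15391 genes were called.

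Of 163 member values under alternatives, 13 reversed direction and 3, all in replicates 1 and 2 only, passed the threshold. Leaving out a library took the log2 fold change of Bmpr2 from -0.83 to 0.53, Smad1 from -0.12 to 0.24, Smad6 from -0.18 to 0.31, Id1 from -0.094 to 0.42, Id2 from -0.50 to 0.086 and Id3 from -0.45 to 0.042. Smad1 was -0.21 in replicates 1 and 2 only and Id3 0.32 in replicate 3 only. Of the list genes, Tob1 ran from -0.61 to 1.42 and Tcf4 from -0.085 to 0.69 when a library was left out, Tob1 was -0.064 in replicates 1 and 2 only, and Tcf4 was -0.37 in replicate 3 only. The cause was not tested. Of the 136 list medians under alternatives 127 moved by less than the spread between replicates and 9 by more. The member median, 0.099, ran from -0.074 in replicates 1 and 2 only to 0.16 with quantile normalization, and was -0.029 without MSC replicate 3. Bmpr1a, Acvr1 and Smad5 kept their direction under all 18 alternatives. Some of these could not reverse it, since other filters, another variance model, the replicate block and the library set term leave a gene's log2 fold change unchanged. Such alternatives are also counted among the 163 member values. Apart from the filters, they cannot move a list median either.

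Among all genes tested, 65 were called with all libraries. The count was 43 at a pseudocount of 0.5, 114 with quantile normalization, 29 without a variance trend, 229 with the replicate block, 1814 with the library set as a term, 6796 in replicates 1 and 2 only and 10 with these averaged. With 1 library fewer it was 0 where that was replicate 1 or 2 of either group, 292 without MSC replicate 3 and 36 without TAC replicate 3. The 95% intervals of the 9 tested members set what these libraries could show.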
